A study of Mus musculus with 16 samples.

Results

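In E10.5 mouse embryos (E, embryonic day) the olfactory pit, an epithelial pocket in the surface of the face, was compared with the neural epithelium of the adjacent brain wall. The comparison held 1 olfactory pit library and 3 neural epithelium libraries, labelled lateral prominence, central and dorsal control, or 4 of the 16 libraries of the study. All 4 came from untreated E10.5 embryos of the CD1 strain, an outbred stock, and were made from total RNA. The labels give neither the number of embryos behind a library nor their sex. The question was what separates placode from brain beyond the transcription factors that both express, such as Lhx2, Six3 and Pax6. Of 15876 genes measured, 692 (4.36%) were higher and 79 (0.498%) lower in the olfactory pit than in each of the 3 neural libraries.

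Cranial placodes are thickenings of the embryonic surface ectoderm from which the paired sense organs and cranial sensory ganglia develop. The olfactory placode folds in to form the pit, keeps an epithelial character on its surface side, and gives rise to olfactory sensory neurons and to neurons that migrate into the brain. The neural epithelium comes from the neural plate, loses E-cadherin during neurulation, and is made of dividing radial progenitors that express Nestin, Vimentin and brain lipid-binding protein.

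The deposited value of a gene in a library is a ratio to the median of that gene over the 16 libraries. A level is here that value as a multiple of the lowest one the gene has among the 16 libraries, so that a level of 1 is the lowest value seen and levels compare libraries for 1 gene, never 1 gene with another. A gene was counted as higher when its olfactory pit level was at least 5 and at least 2-fold above each neural library, and as lower when it was at least 2-fold below each and every neural level was at least 5. Folds are given to the nearest neural library, after the median log2 ratio over the 7082 genes whose lowest value belongs to 1 library was taken off. In the other 8794 genes several libraries share the lowest value, and a fold against a library at that value is a lower limit, written as "at least". There were no replicates: each region has 1 library, the 3 neural libraries are different regions, and no p-value is given for a gene.

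The median log2 ratio taken off was 0.39 against the lateral prominence library, 0.47 against the central one and 0.27 against the dorsal control one. Of the genes with a shared lowest value, 50.6% were at it in the olfactory pit, against 72.4%, 72.4% and 63.8% in the neural libraries in the same order. Levels of at least 5 were reached by 1741 genes in the olfactory pit, against 545, 519 and 958. The value column of the library labelled central carries the abbreviation of the dorsal control, and the library labelled dorsal control carries that of the central region. Nkx2-1, a gene of the ventral forebrain, had a level of 101 in the library labelled dorsal control and 3.91 in the library labelled central. Libraries are called by their labels, and counts made against all 3 together are the same whichever name is right.

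The pit was described by 4 markers, which were chosen with these values known and are given here as a description. Nhlh1, a helix-loop-helix factor of newborn neurons, had a level of 25.4 in the olfactory pit, against 1, 1.99 and 1 in the lateral prominence, central and dorsal control libraries, a fold of 9.21. Runx1, a factor of the olfactory neuron precursors, had a level of 10.6 against 1, 1 and 1, at least 7.67-fold higher. The growth factor gene Pdgfa had a level of 88.2 against 1.78, 3.66 and 2.03, 17.4-fold higher. Epcam, an adhesion molecule of epithelia, had a level of 64.2 against 1, 1.66 and 3.54, 15.0-fold higher. In tissue libraries a smaller share of cells that express a gene and less RNA of it per cell cannot be told apart.

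Most of the factors used by both tissues were counted in neither direction. Of 15 measured genes of the shared placode and forebrain list, 2 (13.3%) were counted as higher, against 4.36% of all genes, and 0 as lower. The level needed was reached by 12 of the 15 for a higher call and by 7 for a lower call. Over all genes with the level needed, 39.7% were counted as higher and 32.8% as lower. Lhx2, a LIM homeobox factor of eye, telencephalon and olfactory epithelium, had a level of 57.2 in the olfactory pit, against 58.5, 21.0 and 26 in the neural libraries. Six3, a homeobox factor of the anterior neural plate and placode, had 36.4 against 15.3, 6.56 and 66.1. Pax6, a paired box factor of eye, nose and forebrain, had 27.0 against 43.8, 66.6 and 1. In each of these 3 genes the olfactory pit level lay inside the neural range. For Pax6 this rests on the dorsal control library, without which it passed as lower (a log2 ratio of -1.09 to the nearest neural library). Sox2, a factor of neural and placodal progenitors, had levels of 28.2 against 17.8, 10.2 and 21.6. The 2 that were counted were Sp8, a zinc-finger factor, at 8.79 against 1, 1 and 1, and the homeobox gene Meis1 at 16.8 against 5.32, 2.79 and 1.69.

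Over all genes 4.36% were counted as higher and 0.498% as lower. As a share of the genes that had the level needed, these were 39.7% of 1741 and 32.8% of 241. The share of a list set beside that of all genes therefore also depends on how many of its members had the level needed. The level was asked of all 3 neural libraries for a lower gene and of 1 library for a higher gene. When only the highest neural library had to reach it, 181 genes were lower. The higher genes had a median fold of 3.21, with 241 at 4-fold or more and 33 at 10-fold or more, and the lower genes a median fold of 3.43, with 31 and 12. Among the 3 neural libraries themselves the highest stood a median 1.60-fold above the lowest over the higher genes and 1.56-fold over the lower genes. Over genes whose lowest value is not shared it was 1.57-fold. The spread among neural libraries was 2-fold or more in 28.6% of the higher, 31.6% of the lower and 25.7% of the unshared genes. In 101 of the higher genes all 3 neural libraries were at a shared lowest value, where regional spread cannot be seen. Just inside the threshold lay Slc25a11 and Akr1a1 at 2.0-fold higher and Olig2 at 2.01-fold and Hoxc8 at 2.04-fold lower. Just outside lay Pawr at 1.997 and Ly6e at 1.994 among higher genes, and Iqsec1 at 1.97 and Gm22864 at 1.92 among lower genes.

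**Figure D1:**
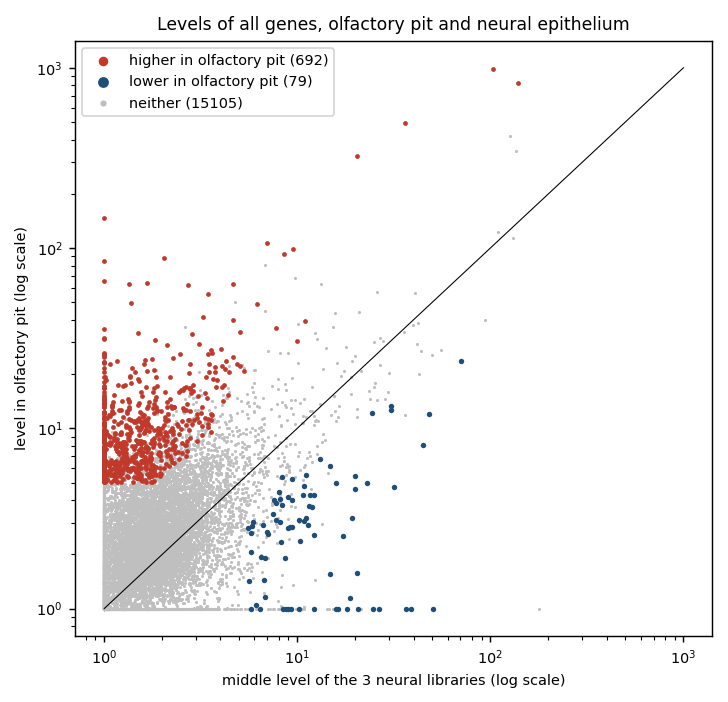
Level of each of 15876 genes in the olfactory pit (vertical, log scale) against the middle of its 3 neural levels (horizontal, log scale), with the line of equal levels before the median log2 ratio is taken off. The 692 higher genes lie above the line and reach down to neural levels of 1, and the 79 lower genes lie below it, 17 of them at an olfactory pit level of 1.

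Among 24 lists of cell types and pathways, that of surface epithelium had the largest share of its measured genes counted. Of its 28 measured genes, 19 (67.9%) were higher, against 4.36% of all genes, and 0 lower. None had the level needed in all 3 neural libraries to be counted as lower. Of the 28, 27 stood above their lowest value in any of the 4 libraries. Their median log2 ratio to the nearest neural library was 2.42, against 0 over all 12982 such genes. Cldn6, a tight junction claudin of embryonic epithelia, had a level of 146 in the olfactory pit against 1, 1 and 1 in the neural libraries, at least 105-fold higher and the largest fold of all genes. Cldn7 stood at 14.3 and Cldn3 at 7.34, each against 1, 1 and 1. Adherens and desmosome genes followed: Cdh1, which encodes E-cadherin, had 10.1 against 1, 1.19 and 1, and Dsp, which encodes desmoplakin, had 17.3 against 1, 1.25 and 1.25. Jup, the plakoglobin gene, had 13.4 against 1.5, 1 and 2.22, 5.0-fold higher. All 3 neural libraries thus sat at or near the lowest value of these junction genes, and 15 of the 19 folds are lower limits.

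The regulators of epithelial identity on the list stood with the junction genes. Grhl2, a grainyhead-like factor that activates junction genes, had a level of 20.5 in the olfactory pit against 1, 1 and 1, at least 14.8-fold higher. Esrp1 and Esrp2, splicing regulators of epithelial isoforms, had 24.9 and 14.4 against 1 in every neural library, at least 18.0-fold and 10.4-fold higher. Trp63, the p63 factor of stratifying epithelia, had 7.42 against 1, 1 and 1, at least 5.35-fold higher. The keratin pair of simple epithelia, Krt8 and Krt18, had 15.8 and 23.1 against 1 in every neural library. Membrane proteases and their inhibitors were also higher: Spint2 at 16.8, Spint1 at 15.0, Prss8 at 9.74 and St14 at 5.89, each against 1, 1 and 1. The 9 that were not counted had olfactory pit levels under 5, among them Cldn4 at 4.57 and Krt19 at 3.24, and Krt7 was at 1 in all 4 libraries.

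**Figure D2:**
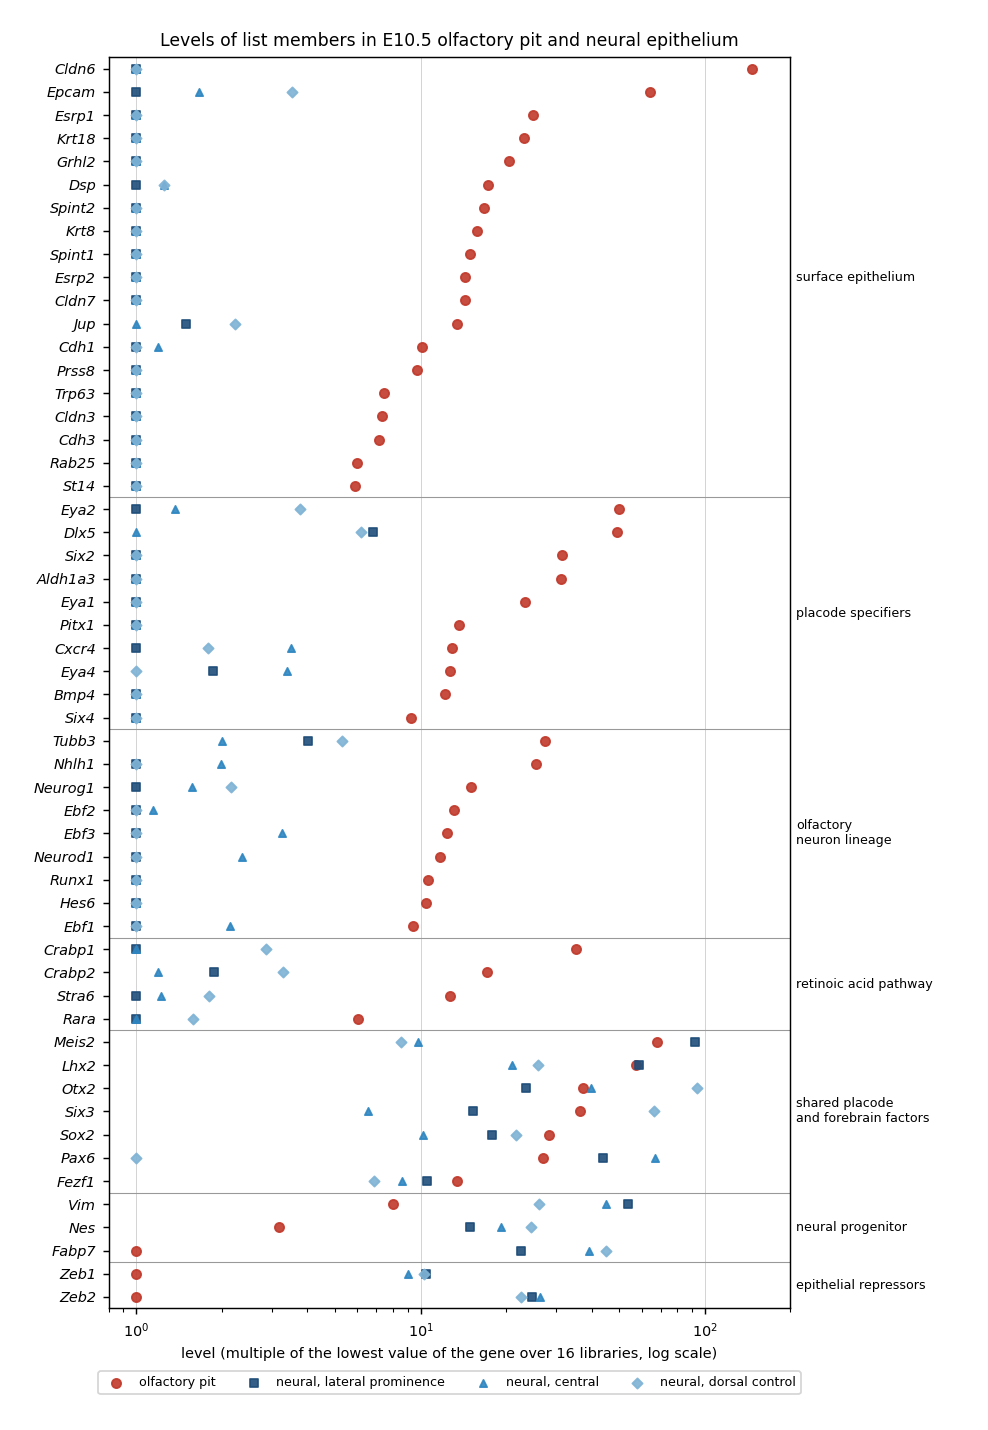
Levels (log scale) of counted members of 6 lists and of 7 shared placode and forebrain factors in the olfactory pit (circle) and the lateral prominence (square), central (triangle) and dorsal control (diamond) neural libraries. Only counted members of the 6 lists are drawn, so the side of the circle there follows from the counting rule. It lies right of all neural symbols in the epithelial, placode, neuron and retinoic acid lists. For the neural progenitor and repressor genes it lies left of them. Among the 7 shared factors, which were chosen and leave out the counted Sp8 and Meis1, it lies among or close to the neural symbols.

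The lower genes included Zeb1 and Zeb2, zinc-finger repressors of E-cadherin and other epithelial genes. Zeb2 had a level of 1 in the olfactory pit against 24.6, 26.4 and 22.6 in the lateral prominence, central and dorsal control libraries, 27.3-fold lower. Zeb1 had 1 against 10.49, 9.0 and 10.2, 12.4-fold lower. For both genes the olfactory pit held the single lowest value of the 16 libraries, and the 3 neural libraries lay close together. Of the other epithelial repressors, a list chosen after values were seen, Snai2 had 2.13 against 1.22, 1 and 1.67, Snai1 had 1.25 against 1, 1 and 1, and Twist1 was at 1 in all 4.

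Zeb factors bind the E-box CAGGTG, and this motif, also chosen after values were seen, was looked up on both strands in RefSeq promoters (250 bases before to 50 after the start, GRCm38.p6). A promoter was given for 11 of the 19 counted epithelial genes, and 9 of the 11 (81.8%) held it, against 20.6% of the 9458 genes of the files with a promoter and 22.5% of the 467 higher genes with one. Of the epithelial promoters, 1 of 11 held the grainyhead motif AACCNGTT (Rab25), against 2.16% of the genes of the files, 1 held CAGCTG, against 17.7%, and 1 held CAGATG, against 13.2%. Promoters with several copies of CAGGTG are shown for Epcam at chr17:87635729-87636028 on the plus strand, Cldn6 at chr17:23679115-23679414 on the plus strand and Spint2 at chr7:29281928-29282227 on the minus strand, with the motif or its reverse complement CACCTG in capitals.
Epcam: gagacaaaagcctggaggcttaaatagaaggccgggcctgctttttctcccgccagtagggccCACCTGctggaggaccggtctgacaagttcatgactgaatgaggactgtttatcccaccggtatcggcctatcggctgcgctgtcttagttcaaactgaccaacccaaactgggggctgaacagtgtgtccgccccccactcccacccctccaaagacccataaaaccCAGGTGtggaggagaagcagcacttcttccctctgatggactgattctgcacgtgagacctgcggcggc
Cldn6: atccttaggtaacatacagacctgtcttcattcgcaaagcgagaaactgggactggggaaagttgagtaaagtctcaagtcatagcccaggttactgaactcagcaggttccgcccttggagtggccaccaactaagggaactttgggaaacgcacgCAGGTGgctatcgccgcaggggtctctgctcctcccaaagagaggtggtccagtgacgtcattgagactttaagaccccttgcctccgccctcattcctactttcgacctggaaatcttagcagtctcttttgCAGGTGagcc
Spint2: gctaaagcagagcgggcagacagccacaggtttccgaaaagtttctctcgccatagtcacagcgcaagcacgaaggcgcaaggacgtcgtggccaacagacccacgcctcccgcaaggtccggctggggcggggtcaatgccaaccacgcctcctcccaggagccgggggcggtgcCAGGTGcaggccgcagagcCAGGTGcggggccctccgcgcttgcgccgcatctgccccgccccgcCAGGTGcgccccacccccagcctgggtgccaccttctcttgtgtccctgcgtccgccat
Epcam and Cldn6 hold 2 copies each and Spint2 holds 3. A match describes the letters in this window, and binding was not measured.

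Placode specifiers had the next largest share, with 11 of 20 measured genes (55.0%) higher, against 4.36% of all genes, and 0 lower. None of the 20 had the level needed in all 3 neural libraries to be counted as lower. Their median log2 ratio was 1.75 over the 19 above their lowest value. Six2 and Six4, of the sine oculis family of homeobox factors, and the Eya genes, whose products partner with that family in transcription, were among them. Six2 had a level of 31.5 in the olfactory pit against 1, 1 and 1, at least 22.8-fold higher, and Six4 had 9.26 against 1, 1 and 1, at least 6.68-fold higher. Eya1 had 23.4 against 1, 1 and 1, Eya2 had 49.8 against 1, 1.37 and 3.77, and Eya4 had 12.7 against 1.87, 3.40 and 1. Six3, of the same homeobox family, did not follow Six2 and Six4, as its levels above show. Dlx5, a homeobox factor of placodes that the ventral forebrain shares, had 49.0 against 6.80, 1 and 6.16, 5.48-fold higher, and Pitx1 had 13.7 against 1, 1 and 1. Among the 9 not counted, Dlx6 had 8.17 against 15.7, 1 and 9.13 and Isl1 had 8.0 against 1.30, 1 and 6.98, both inside the neural range once the median log2 ratio was taken off, while Tfap2a had 4.06 against 1, 1.34 and 2.13.

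Over the 27 rows measured for the olfactory neuron lineage the median log2 ratio was 0.44, and 0 were lower. The level needed to be counted as higher was reached by 17 rows, and over all genes 39.7% with that level were higher. In this list 9 (33.3%) were higher, against 4.36% of all genes. Besides Nhlh1 and Runx1 these were the proneural and differentiation factors Neurog1, Neurod1, Ebf1, Ebf2 and Ebf3, the Notch-pathway modulator Hes6 and the neuronal tubulin gene Tubb3. Neurog1 had a level of 15.0 in the olfactory pit against 1, 1.56 and 2.16, 5.77-fold higher. Ebf2 had 13.1 against 1, 1.15 and 1, 8.22-fold higher, and Neurod1 had 11.7 against 1, 2.36 and 1, 3.58-fold higher. Tubb3 had 27.4 against 4.02, 2.01 and 5.27, 4.31-fold higher. Pan-neuronal genes that the brain wall also makes were closer: Elavl4 had 44.8 against 6.77, 23.3 and 6.45, 1.39-fold above the central library, and Stmn2 had 16.9 against 5.19, 5.81 and 9.90. The central library gave the nearest neural level for Nhlh1, Ebf1, Ebf2, Ebf3 and Neurod1. A second row under the symbol Ebf1 had a level of 1.24 against 1, 1 and 1.

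The promoter of Nhlh1, at chr1:172057547-172057846 on the minus strand, is shown because the gene is the neuronal marker of the pit, with its single CAGATG, an E-box that proneural factors bind, in capitals.
Nhlh1: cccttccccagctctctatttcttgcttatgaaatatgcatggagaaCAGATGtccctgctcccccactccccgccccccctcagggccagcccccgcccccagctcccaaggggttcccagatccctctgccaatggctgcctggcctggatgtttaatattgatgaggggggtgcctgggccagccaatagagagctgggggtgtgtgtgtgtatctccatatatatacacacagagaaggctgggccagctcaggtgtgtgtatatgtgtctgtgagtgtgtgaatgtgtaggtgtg
Of the 8 counted neuron-lineage genes with a promoter, 1 (12.5%) held CAGATG, against 13.2% of the genes of the files with a promoter. CAGCTG was held by 1 (12.5%), against 17.7%, so neither share was above that of the files. CAGGTG was held by 3 (37.5%), against 20.6%, and AACCNGTT by 0, against 2.16%.

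Among secreted signals, both measured PDGF ligands were higher and neither receptor stood above its lowest value. Pdgfc had a level of 25.8 in the olfactory pit against 1, 1 and 1, at least 18.6-fold higher, beside Pdgfa given above. Pdgfra and Pdgfrb, the receptors that mesenchyme carries, were at 1 in all 4 libraries. Of 13 measured genes of the retinoic acid pathway, 6 (46.2%) were higher, against 4.36% of all genes, and 0 lower. Over the 11 that stood above their lowest value in any of the 4 libraries the median log2 ratio was 1.66. Aldh1a3, which makes retinoic acid, had 31.2 against 1, 1 and 1, at least 22.5-fold higher, whereas Aldh1a2 was at 1 in all 4 libraries. Stra6, a retinol uptake receptor, had 12.7 against 1, 1.22 and 1.81. The retinoic acid binding proteins Crabp1 and Crabp2 had 35.4 against 1, 1 and 2.86 and 17.1 against 1.87, 1.19 and 3.27, and the receptor gene Rara had 6.04 against 1, 1 and 1.58. The list thus held a synthesis enzyme, an uptake receptor, binding proteins and a nuclear receptor on the higher side. The degrading enzymes Cyp26a1 and Cyp26c1 were at 1 in the olfactory pit. None of the 13 genes had the level needed in all 3 neural libraries, so none could be counted as lower.

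In the BMP and TGF-beta list 5 of 20 were higher and 0 lower. The ligand gene Bmp4 had a level of 12.2 in the olfactory pit and Tgfb2 had 13.8, each against 1, 1 and 1. The response genes Id1, at 11.4, and Msx1, at 8.80, also stood against 1 in every neural library, and Id2 had 14.8 against 1, 1.57 and 1. Id3, at 26.3 against 1, 10.6 and 8.15, was 1.79-fold above the nearest neural library. Of 20 FGF genes 1 (5.0%) was higher, close to the 4.36% of all genes, the ligand gene Fgf9 at 7.73 against 1, 1 and 1. Fgf8, an organiser ligand at the placode rim, had 3.20 against 1, 1 and 1.24, under the level needed, and the FGF feedback gene Spry1 had 5.30 against 1, 1 and 11.5. Wnt5a was the only higher gene of 22 in the Wnt list, a share of 4.55% that is also close to that of all genes, at 9.11 against 1, 3.25 and 1.35, 2.02-fold. Hey1, a Notch target, had 34.1 against 5.03, 3.22 and 5.22, and with Hes6 made 2 of 17 (11.8%) in the Notch list. In these 4 lists 0 genes were lower, but only 2 genes, both in the Notch list, had the level needed in all 3 neural libraries.

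Of 24 basement membrane and integrin genes 5 (20.8%) were higher, against 4.36% of all genes, and 0 lower. They were the laminin genes Lama5, at a level of 7.82 against 1, 1 and 1, and Lamb1, at 6.63 against 1, 1 and 1, the integrin gene Itga3, at 6.81 against 1, 1 and 1.23, Col18a1 and Fras1. Of 32 axon guidance genes 2 (6.25%) were higher, near the 4.36% of all genes, and 1 lower. Sema3a, a repellent of growing axons, had 17.1 in the olfactory pit against 2.16, 1 and 1, and the Slit receptor gene Robo1 had 7.79 against 2.08, 1.56 and 1. Ephb2 had 5.23 against 9.16, 19.6 and 9.44, 2.18-fold lower, and was no longer counted without the median log2 ratio taken off (a log2 ratio of -0.81). Of 16 proliferation genes 1 (6.25%) was higher, the cell cycle inhibitor gene Cdkn1a at 15.3 against 1.13, 3.04 and 1. Mki67, a marker of cycling cells, had 1.44 against 2.81, 2.38 and 2.04. Cadherins and claudins gave 6 higher genes of 23 (26.1%), and 5 of them are already in the epithelial list. The other was Cldn9 at 8.36 against 1, 1 and 1, while Cdh2, the N-cadherin gene, had 8.17 against 10.9, 8.85 and 9.78.

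**Figure D3:**
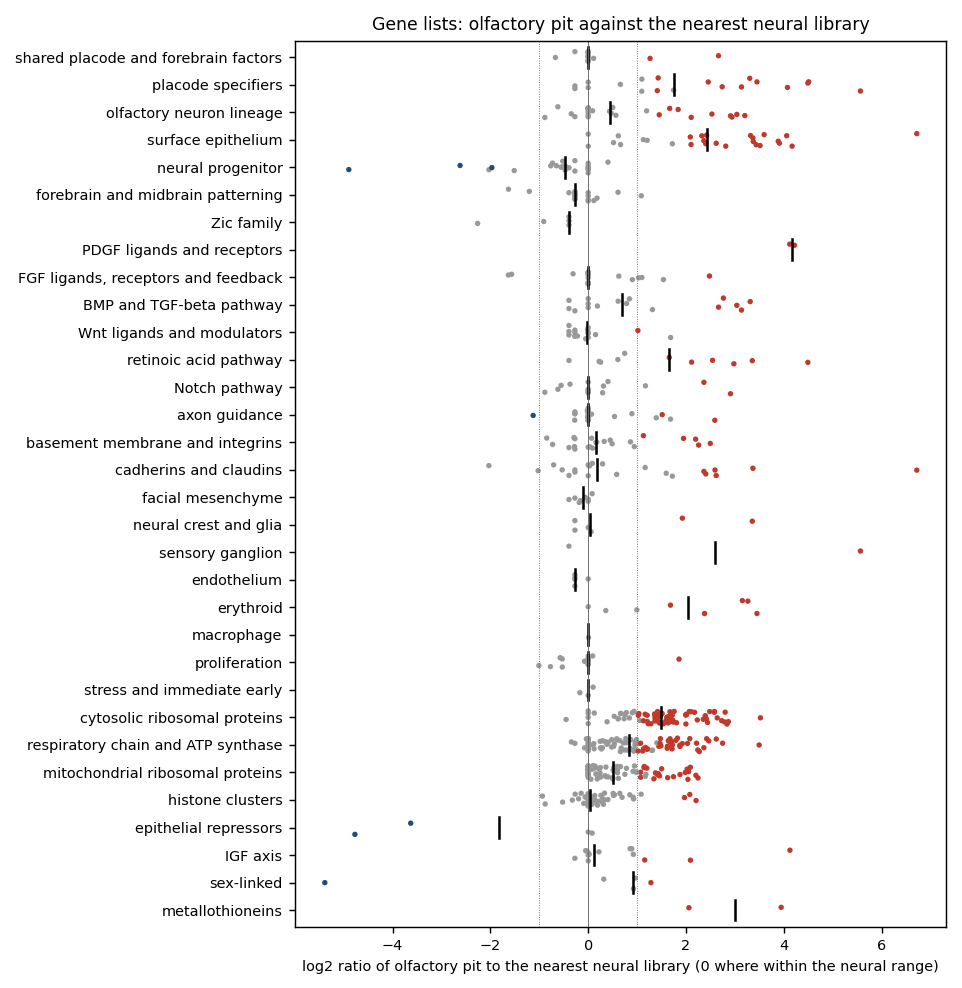
Log2 ratio of the olfactory pit to the nearest neural library for the members of each list that stood above their lowest value in any of the 4 libraries, with 0 where the olfactory pit lay inside the neural range; genes at their lowest in the pit and in a neural library lie slightly below 0 by the median log2 ratio taken off. Red points are counted as higher, blue as lower, grey as neither, black bars are medians, and dotted lines mark 2-fold, and the last 8 lists were chosen after values were seen. The surface epithelium bar stands at 2.42 and the placode specifier bar at 1.75.

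Against 0.498% lower over all genes, 3 of 24 in the neural progenitor list were lower and 0 higher. Only 7 of the 24 had the level needed in all 3 neural libraries to be counted as lower. Over all genes 32.8% of the 241 with that level were lower, so the list share also reflects which genes reach it. The level needed for a higher call was reached by 10. The median log2 ratio of the list was -0.47. This is the value of genes at their lowest in both the olfactory pit and the central library, where it only repeats the median log2 ratio taken off. Fabp7, the brain lipid-binding protein of radial progenitors, had a level of 1 in the olfactory pit against 22.6, 39.0 and 45.1, at least 29.7-fold lower. Nes, which encodes the filament protein Nestin, had 3.19 against 14.9, 19.2 and 24.4, 6.15-fold lower, and Vim, the vimentin gene, had 8.03 against 53.8, 45 and 26.1, 3.92-fold lower. For all 3 genes the olfactory pit lay below every neural library. Sox21 had 7.99 against 12.7, 13.2 and 9.5, Notch1 had 11.1 against 12.4, 12.1 and 29.3, and Hes5 had 3.26 against 2.02, 1.85 and 15.1, none of them counted. Most progenitor genes differed by less than 2-fold from the nearest neural region or lay inside the neural range.

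The list of forebrain and midbrain patterning genes and that of Zic genes gave no count in either direction. Of 26 forebrain and midbrain patterning genes 0 were higher and 0 lower. Only 4 had the level needed to be counted as higher. None reached it in all 3 neural libraries, so none could be counted as lower. Wnt8b had a level of 1 in the olfactory pit against 1, 11.1 and 1, and Wnt7b had 1 against 1, 5.75 and 1. All 5 Zic genes, zinc-finger factors of the dorsal neural tube and forebrain, were at 1 in the olfactory pit. Their neural levels spread widely: Zic1 had 3.65, 14.3 and 61.3 and Zic4 had 1, 3.03 and 19.7, so that none passed the level in all 3 libraries. The summed level of the 5 was 5 in the olfactory pit, against 8.08, 25 and 93.2 in the lateral prominence, central and dorsal control libraries.

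Among the 12 largest folds on the lower side outside these lists were neural genes and genes used in most cells. Sema5b, a semaphorin, had a level of 1 in the olfactory pit against 36.6, 49.6 and 11.2, at least 13.6-fold lower. Jam2, a junctional adhesion molecule, had 1 against 18.1, 24.5 and 13, Fez1, a regulator of axon outgrowth, had 1 against 9.22, 10.2 and 9.29, and Zbtb20, a zinc-finger factor, had 1.15 against 18.8, 12.1 and 28.1. Cops2, a subunit of the COP9 signalosome, had 1 against 30.9, 25.8 and 26.4, 31.8-fold lower, and Eif6, a factor of ribosome subunit maturation, had 1 against 10.8, 7.99 and 8.92, 10.8-fold lower. Dlg1, a polarity scaffold gene, had 1 against 15.8, 18.2 and 15.4, and Lrrc8a, a subunit of the volume-regulated anion channel, had 1 against 12.1, 16.2 and 23.5. Genes of this kind can be listed at their lowest value in single libraries of this study: Tardbp, an RNA-binding protein that cells generally need, was at 1 in all 4 libraries, Tpr had 1 against 256, 1 and 179, and Ttc3 had 123 against 1, 110 and 141. A level of 1 is therefore given here as listed, and its part in the folds of Cops2, Eif6, Dlg1, Zeb1 and Zeb2 was not tested. Lars2, at 113 against 136, 86.6 and 131, was even across the 4.

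Also lower were Nova1, a neuronal splicing regulator on 2 rows, 8.78-fold and 7.02-fold lower, and Ptprz1, a receptor phosphatase of radial glia, at 1 against 32.7, 20.7 and 5.94. Olig2, a ventral progenitor factor, had 3.99 against 6.11, 7.53 and 26.2, just inside the threshold. Higher genes outside the lists included Igf2, a growth factor, at a level of 62.8 in the olfactory pit against 1.34, 1 and 2.98, 17.5-fold higher. AL672259.2 and Gm25809, given by name only, were at least 61.0-fold and 15.6-fold higher. Of 14 genes of the IGF axis, chosen after values were seen, 3 (21.4%) were higher, against 4.36% of all genes. Besides Igf2 these were Igfbp2 at 62.8 against 3.14, 4.67 and 12.2 and H19 at 7.72 against 2.64, 2.17 and 1.44. Both metallothionein genes, also chosen after values were seen, were higher, against 4.36% of all genes. Mt2 had 33.8 against 1.67, 1 and 1.5 and Mt1 had 13.1 against 2.40, 1.10 and 1.

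Of 5 measured sex-linked genes, a list chosen after values were seen, 1 (20.0%) was higher, 1 lower and 3 neither. Over all genes 4.36% were higher and 0.498% lower. Xist, expressed from the inactive X chromosome, had a level of 1 in the olfactory pit against 50.6, 30.1 and 83.4, 41.8-fold lower and the largest fold on the lower side. The Y-linked gene Uty had 8.20 against 1, 2.43 and 1.03, 2.43-fold higher, and Eif2s3y, which was not counted, had 17.7 against 1, 6.55 and 1. The olfactory pit and the neural libraries thus stood at opposite ends for Xist, and the part of embryo sex in other genes was not tested.

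Markers of other cell types were mostly at or near their lowest values. Of 21 facial mesenchyme genes 0 were higher and 0 lower, and none had the level needed for either call. In the olfactory pit 15 were at 1, Twist1, Prrx2, Alx4 and Postn among them. The summed level of the 21 was 23.6 against 21.2, 26.3 and 24.7. Of 13 endothelial genes 0 were counted, and none had the level needed for either call. In the olfactory pit 12 were at 1, and the summed level of the 13 was 13.3 against 17.5, 15.9 and 13. Sox10 and Foxd3, defining genes of neural crest, were at 1 in all 4 libraries. Of 9 crest and glia genes 2 (22.2%) were higher, against 4.36% of all genes. They were Crabp1 and the receptor gene Erbb3, the latter at 5.27 against 1, 1 and 1. Of 4 measured sensory ganglion genes 1 was higher and 0 lower. The higher one, also counted among the placode specifiers, had 65.7 against 1 in every neural library, at least 47.4-fold higher. The other 3 were at 1 in the olfactory pit, and of these Pou4f1 and Ntrk3 were at 1 in all 4 libraries. Neither of 2 macrophage genes and none of 8 stress genes was counted, that is 0 of each. Only 2 of 10 listed macrophage genes were measured, and neither had the level needed for a call. Among the 8 stress genes 1 had the level needed for a higher call and 0 for a lower call. Of 12 erythroid genes 5 (41.7%) were higher, against 4.36% of all genes. Hba-x had 493 against 35.9, 34.2 and 78.5, Hbb-y 322 against 20.4, 21.2 and 14.8, and Hbb-bh1 107 against 3.97, 8.02 and 6.93. The others were Hba-a1 and Hbb-b2, which share sequence with near-identical globin genes and are uncertain. Hba-a1 was no longer counted when the median log2 ratio was taken within transcript length classes. The summed erythroid level was 982 against 76.9, 79.3 and 116, with Klf1 at 1 in all 4 libraries. The part of blood cells in other genes was not tested.

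The ratio of olfactory pit to neural libraries also moved with transcript length, taken as the longest transcript in GENCODE M21, which 93.1% of the genes had. Its median was 1819 bases for higher genes and 4538 for lower genes, against 3003 for all. Among genes whose lowest value is not shared, the median log2 ratio in the shortest of 5 equal length classes was 0.72, 0.94 and 0.97 against the lateral prominence, central and dorsal control libraries, and in the longest class it was -0.21, -0.23 and -0.24. In the shortest class 63.0% of the genes with the level needed were higher, and in the longest 25.6%. With the median log2 ratio taken within each class, an alternative chosen after seeing the data, 517 genes (3.26% of all) were higher, 498 of them among the 692, and 83 (0.523%) were lower, 74 of them among the 79. The epithelial list kept its 19, the placode list its 11, the neuron list its 9 and the progenitor list its 3. Of 81 cytosolic ribosomal protein genes, a list chosen after values were seen, 60 were higher with 1 ratio for all genes and 39 within length classes. For 100 respiratory chain and ATP synthase genes these were 35 and 17, and for 78 mitochondrial ribosomal protein genes 21 and 13. Over all genes the shares were 4.36% and 3.26%. The part of library preparation and RNA quality in this was not tested.

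**Figure D4:**
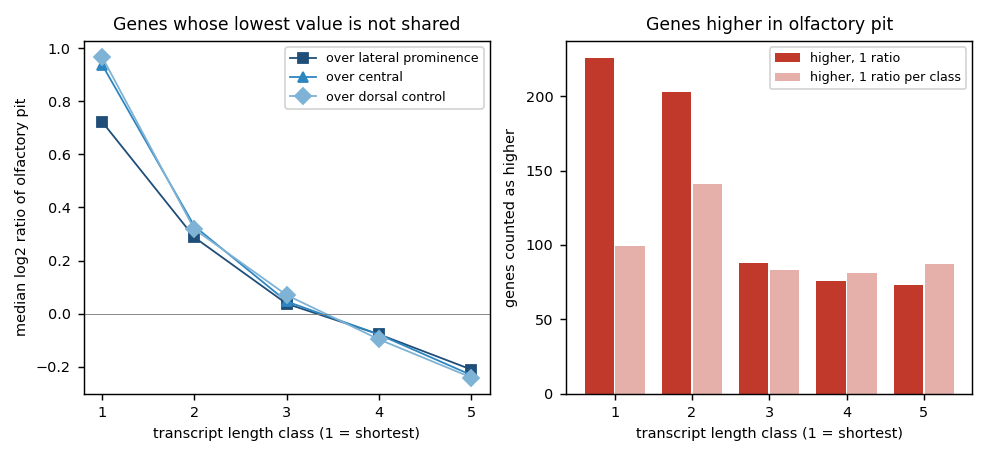
Left, median log2 ratio of the olfactory pit to each neural library over genes whose lowest value is not shared, by transcript length class. Right, number of genes counted as higher in each class with 1 median log2 ratio for all genes (dark) and with 1 per class (light). The median log2 ratio lies between 0.72 and 0.97 in the shortest class and between -0.24 and -0.21 in the longest, and the counts in that shortest class are 226 and 99.

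The other 12 libraries, which the counting used only for the lowest value of each gene, give further values for these genes. For all 19 counted epithelial genes the highest of the other 12 was the E9.5 epidermal ectoderm, surface ectoderm taken 1 stage earlier. The same library was highest for 8 of the 11 placode specifiers, for both PDGF ligands, and for 164 of the 692 higher genes (23.7%), against 18.7% of the 1741 genes with the level needed and 12.9% of all genes. Epcam had a level of 63.4 there, close to that of the olfactory pit, and Cldn6 had 84.8, against 146 in the olfactory pit. That ectoderm library was also highest of the 12 for 4 of the 9 counted olfactory neuron lineage genes, at levels below the pit. Neurog1 had 5.16, Neurod1 2.85, Runx1 2.43 and Nhlh1 1.76 there. Of the 60 higher ribosomal protein genes, 50 were highest in the E8.5 mesoderm, which was also highest for 251 of the 692 (36.3%), against 22.2% of the genes with the level needed and 15.4% of all genes. For 50 of the 79 lower genes (63.3%), against 47.7% of the 241 genes with the level needed and 15.8% of all, the highest of the other 12 was the library labelled E10.5 medial nasal prominence. Its median level over the lower genes was 10.2, against 2.87 in the olfactory pit. In the neural libraries, where the counting rule asked at least 5, the medians were 10.3, 10.2 and 11. Fabp7 had a level of 56.4, Nes 43.2 and Zeb2 32.0 in the medial nasal prominence library, which by its label is facial tissue and not brain.

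**Figure D5:**
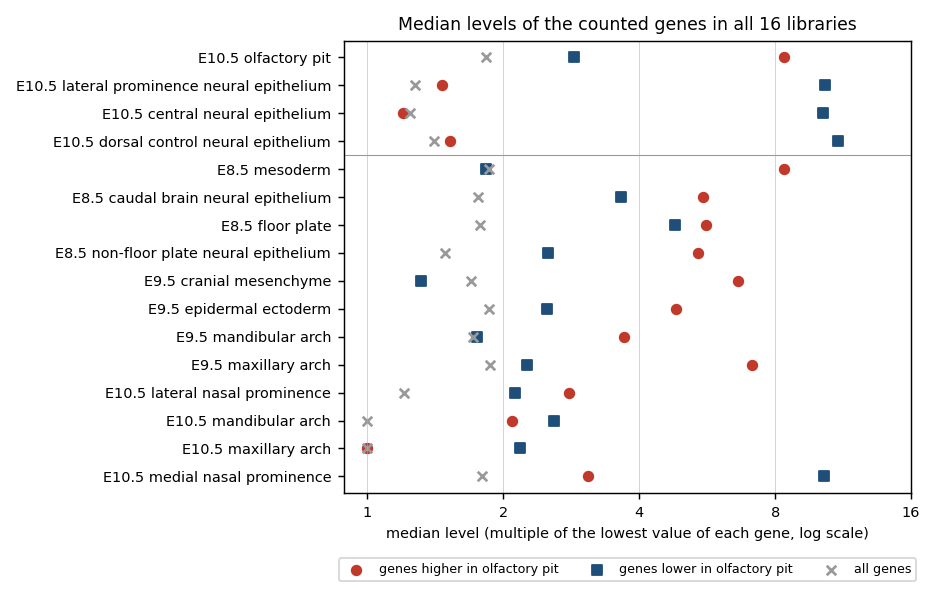
Median level (log scale) of the 692 higher genes (circles), the 79 lower genes (squares) and all genes (crosses) in the olfactory pit, the 3 neural libraries and the other 12. The higher genes have a median of 8.37 in the olfactory pit and 8.38 in E8.5 mesoderm, and the lower genes stand near 10 in the 3 neural libraries and at 10.2 in the E10.5 medial nasal prominence library.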

How the data were processed

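Total RNA of 16 libraries from CD1 mouse embryos was sequenced as 50-base single-end reads, per the labels, at a stated depth above 40000000 reads. Read totals of single libraries are not analysed here, so their exact depth is unknown and no interval or floor was computed. The processing notes of the submitters name Bowtie, TopHat, TopHat2, Cufflinks and the build mm9, with versions not given in the sources used here. Deposited values are a ratio: the authors divided each gene by its median over the 16 libraries, as the values show, since every median is 1. The unit that was divided is not stated. A lowest value shared by several libraries was read as a floor, and 6 genes reached the lowest deposited ratio of 0.01, 2 of them counted. Symbols on several rows (194 rows, 7 counted) were kept apart by Ensembl identifier.

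Libraries were grouped by their titles. Levels, the removal of the median log2 ratio and the counting rule are as given in the report, computed with pandas 2.3.3 in Python 3.11.15. Named genes were the 12 largest folds in each direction, the 4 markers, Lhx2, Six3 and Pax6, counted members of each list with up to 4 that were not, and Tardbp, Tpr, Lars2 and Ttc3. The members, lists and rules were chosen with earlier results of these data known. Alternatives were other shifts, folds and level minimums, leaving out each neural library, and limma 3.58.1 in R 4.3.3. The scripts were tested on simulated data. Of 435 listed genes 380 were measured. RefSeq promoters and GENCODE M21 lengths are on GRCm38, so no gene coordinate of the files is given. Protein sequences were not used here, and some genes are not reported here.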

Additional observations from a re-analysis of the deposited data

How the results depend on the processing

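All counts are of genes higher, then lower. The counts of 692 and 79 stayed within 1.5 times when no median log2 ratio was removed (892 and 58), when it came from genes at 2 or more times their lowest value (765 and 72) or within 5 classes of transcript length (517 and 83), and without ribosomal and respiratory genes (576 and 79). They moved at 4-fold (241 and 31), at a level of 3 (1047 and 180), at a level of 10 (257 and 27), with no minimum (1092 and 356), and among genes whose lowest value is not shared (403 and 43), since each changes how many genes can be counted. Without 1 neural library they ranged from 759 to 931 and from 120 to 141; without the library labelled lateral prominence 121 were lower, without central 120 and without dorsal control 141, and the rule then has fewer libraries to clear. Asking the level of the highest neural library gave 181 lower.

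Over the members of the 24 lists, 70 were higher and 4 lower. The higher count moved only among genes whose lowest value is not shared, to 6. The lower count became 2 at 4-fold, 7 at a level of 3, 14 with no minimum, 13 when the highest neural library had to reach the level, and ranged from 6 to 13 without 1 neural library (6, 8 and 13 without lateral prominence, central and dorsal control); the list members higher ranged from 72 to 80.

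limma took the 3 neural regions as replicates and assumed that the lone olfactory pit library varies as they do. It counted 0 and 0 of 9148 genes at an adjusted p under 0.05 (smallest 0.0566), and 770 and 540 at an unadjusted p under 0.05; tested on simulated data of this design it made no calls, so its 0 says nothing about the stability of the counts. Of 88 counted genes checked by name, Ephb2 lost its call without the median log2 ratio removed (-0.81), with the other shift (-0.98) and within length classes (-0.88), and Hba-a1 within length classes (0.81). Pax6 passed as lower without the dorsal control library (-1.09), and Tpr without the central one (-7.76). No paired analysis was possible because each region has 1 library and the labels give no replicate numbers. Exact depth is unknown, so differences below the shared lowest value cannot be seen.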
